A study of Trametes pubescens and Hermanssonia centrifuga with 16 samples.

Results

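The straw-high genes of Trametes pubescens are 113 of the 14451 gene models counted for this white-rot fungus. They were chosen by their measured level: the lowest of the 4 wheat straw libraries had to reach 10 CPM (read counts after scaling every library to 1 shared total) and to be at least 2 times the highest of the 4 spruce libraries. The mirrored rule gave 102 spruce-high genes in the same fungus, and the same rule gave 49 of 13785 gene models in Phlebia centrifuga, the other fungus of the study. Strain FBCC735 grew for 21 days on pieces of wheat straw or on Norway spruce sticks, 2 g per culture, at a moisture content of 60%, and RNA of the mycelium was sequenced. The 4 groups were straw at 25 °C, straw at 15 °C, spruce at 25 °C and spruce at 15 °C, with 2 libraries each, and they were set up to ask how temperature alters the response to plant biomass. All came from liquid precultures kept at 25 °C. Temperatures here follow the sample titles, since the protocol text names 25 °C alone for the cultures on straw and wood. No label tells whether both libraries of a group were grown as cultures of their own, so a p-value measures the spread between libraries alone, and that spread may be technical.

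White-rot fungi secrete enzymes that break down cellulose, hemicelluloses and lignin, and they take up the sugars set free. Straw, a grass biomass, is rich in arabinoxylan cross-linked by ferulic acid, whereas spruce is a softwood with galactoglucomannan as its main hemicellulose and a lignin built mostly of guaiacyl units. Fungi adjust which of their enzyme and transporter genes they transcribe to the polymers around them. The files do not pair the gene models with gene names or products, so no member is given a function. Each model is named by its number, its scaffold and its place in the model numbering of that scaffold, and no coordinates or sequences were used.

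The 8 libraries held 10180387 to 13635999 raw counts, with at least 1 count for 12223 to 12327 models in a library. All 113 members passed the filter on low counts, as their floor of 10 CPM on straw ensures. The straw-high genes took 3.04% and 2.40% of all counts in the straw libraries at 25 °C and 2.42% and 2.92% at 15 °C, against 0.397% and 0.439% on spruce at 25 °C and 0.230% and 0.287% on spruce at 15 °C. The straw libraries of both temperatures overlapped in this share, and the spruce libraries did not, those at 25 °C being higher. The gap between substrates follows from the rule and is a description. Counts in bulk mycelium cannot tell fewer hyphae expressing a gene apart from less RNA in each.

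**Figure D1:**
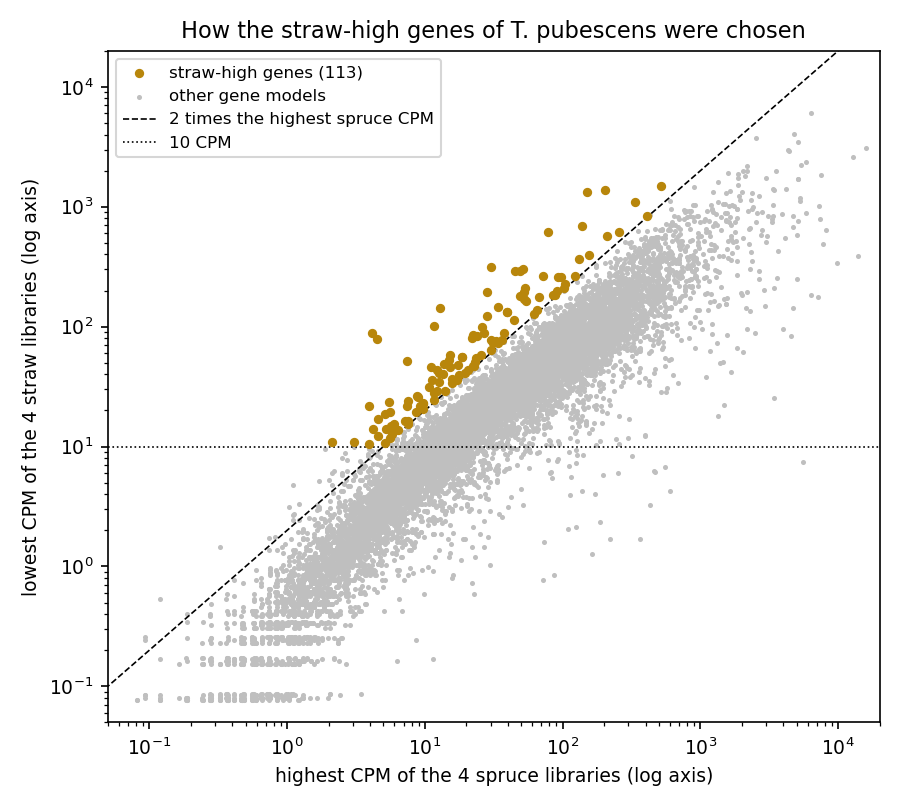
Lowest CPM of the 4 straw libraries against highest CPM of the 4 spruce libraries, both on log axes, for the 12111 gene models above 0 on both axes; the dashed and dotted lines are the limits of the rule. The 113 straw-high genes lie above both lines, most of them close to the dashed one.

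Most members lay near the threshold of the rule and a few far above it. The ratio of the lowest straw to the highest spruce library had a median of 2.79 over the 113 members, and it was under 3 in 64 of them, at least 5 in 16 and at least 10 in 4. The members just inside the limit of 2 had ratios of 2.03 and 2.03, and the models just outside had 1.99 and 1.98. At the floor of 10 CPM, the lowest straw libraries of the members just inside had 10.5 and 10.7 CPM and those of the models just outside 9.91 and 9.51 CPM. By group means, straw over spruce had a median fold of 4.70 at 25 °C (2.21 to 109 over the members) and of 6.23 at 15 °C (2.31 to 135). The fold was smaller at 25 °C than at 15 °C in 76 of the 113. The rule used the levels behind both folds, so this count is a description. Without the second spruce library at 25 °C, 185 models met the rule, all 113 members among them.

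The widest gap belonged to jgi|Trapub1|9415|scaffold_354.3 (model 3 of scaffold 354). It had 339 and 210 CPM on straw at 25 °C and 89.3 and 250 CPM on straw at 15 °C, against 0.899 and 4.14 CPM on spruce at 25 °C and 1.20 and 1.31 CPM on spruce at 15 °C. The lowest straw library stood 21.6 times above the highest spruce library, and the spruce libraries held 80 counts in all against 10680 on straw. Next came jgi|Trapub1|10428|scaffold_456.15, model 15 of scaffold 456. Its CPM was 84.6 and 83.0 on straw at 25 °C, 79.0 and 143 on straw at 15 °C, 4.50 and 2.94 on spruce at 25 °C and 3.95 and 4.12 on spruce at 15 °C. In both models the libraries of the 2 temperatures overlapped on straw and on spruce.

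CPM is not divided by gene length, so the order of members by CPM is an order of read shares and not of transcript numbers. On this scale 5 members reached 1000 CPM averaged over the straw libraries, 45 lay from 100 to 1000 CPM and 63 below 100 CPM. Of the 100 models with the most reads on straw, 6 were members, the first at rank 26. On spruce 24 members averaged under 5 CPM. The 2 members with the most reads stood side by side on scaffold 462, as its models 5 and 4. The one with more reads, jgi|Trapub1|10553|scaffold_462.5, had 2180 and 1384 CPM on straw at 25 °C, 1335 and 1988 on straw at 15 °C, 151 and 120 on spruce at 25 °C, and 33.7 and 50.6 on spruce at 15 °C. The other, jgi|Trapub1|10552|scaffold_462.4, had 2095 and 1539 CPM on straw at 25 °C, 1369 and 1783 on straw at 15 °C, 202 and 134 on spruce at 25 °C, and 59.4 and 76.5 on spruce at 15 °C. In both models the straw libraries of the 2 temperatures overlapped while both spruce libraries at 25 °C were above both at 15 °C.

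**Figure D2:**
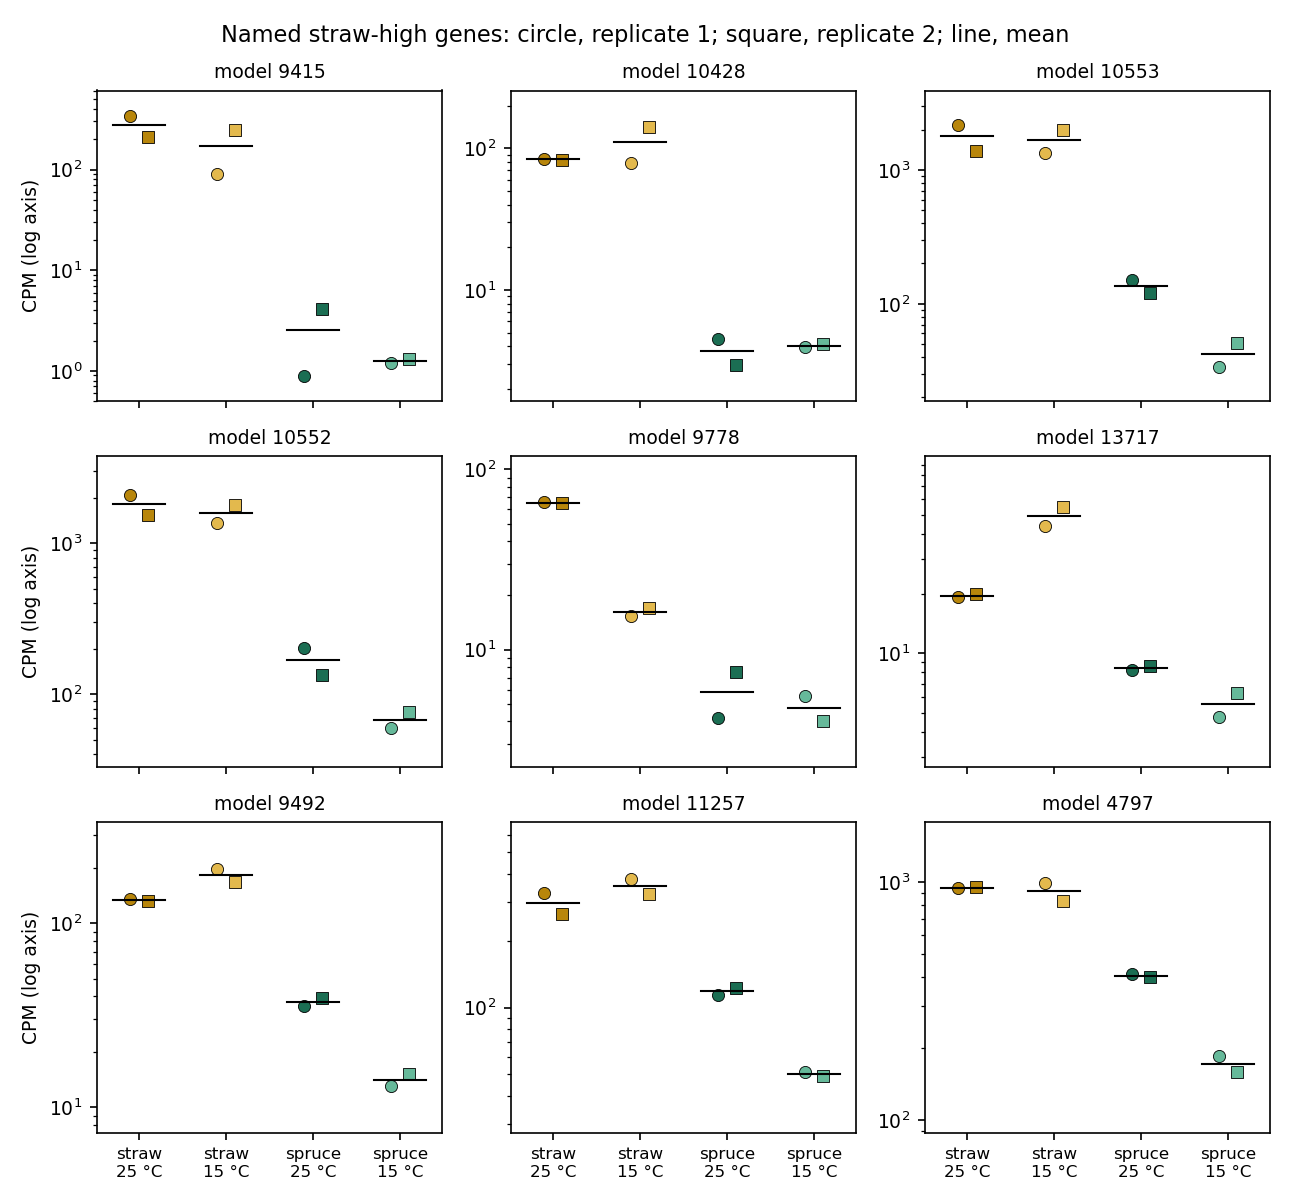
CPM of 9 named straw-high genes in each library, on log axes, by group from straw at 25 °C to spruce at 15 °C. All straw points lie above all spruce points, as the rule demands; models 9778, 13717 and 9492 separate by temperature on straw, and models 9492, 11257, 4797, 13717, 10552 and 10553 on spruce.

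The rule was also applied to the libraries of each temperature alone, which share no library but share the scaling. It was met by 199 models at 25 °C and by 480 at 15 °C, which is 1.38% and 3.32% of all gene models. Both lists held 144 models, 72.4% of the list at 25 °C and 30% of the list at 15 °C. Of these 144, 31 were not members, because a straw library of one temperature was less than 2 times a spruce library of the other.

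On straw, no straw-high gene passed the test for a temperature difference, which only 0.0258% of all tested genes passed. At an unadjusted edgeR p below 0.05 the share of members exceeded that of all genes in both directions. About as many members had both 25 °C libraries above the 15 °C libraries as below them. Members with 25 °C libraries both above the 15 °C libraries numbered 27 (23.9%, against 15.8% of all tested genes), and 26 had both below (23% against 17.5%). The log2 fold change of 25 °C over 15 °C had a median of 0.10 over the members, with quartiles of -0.38 and 0.39, beside a median of 0.01 and quartiles of -0.18 and 0.18 over the 11622 genes tested. The rule did not use this contrast, but it bounds it, since a gene that fell far at either temperature on straw could not be a member. No member was called at an adjusted p below 0.05 by edgeR's quasi-likelihood test with Benjamini-Hochberg adjustment over all tested genes, where 0.0258% of all genes were called. At an unadjusted p below 0.05 there were 14 higher (background 2.43%) and 14 lower (background 4.1%), 12.4% of the members in each direction, and DESeq2 called 7 members, 3 higher (2.65%, against 0.293% of all tested genes) and 4 lower (3.54% against 0.99%).

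The members with the lowest p on straw went opposite ways. The first, jgi|Trapub1|9778|scaffold_389.27, had 65.7 and 64.7 CPM on straw at 25 °C and 15.3 and 17.0 CPM on straw at 15 °C, without overlap. On spruce it had 4.17 and 7.54 CPM at 25 °C and 5.51 and 4.02 CPM at 15 °C, where the temperatures overlapped. Its log2 fold change on straw was 2.01 ± 0.28 (SE; edgeR adjusted p = 0.0536), which missed the threshold here and passed it in a fit of the 4 straw libraries alone (edgeR adjusted p = 0.0105). The second, jgi|Trapub1|13717|scaffold_895.1, had 19.3 and 19.8 CPM on straw at 25 °C and 44.3 and 55.1 CPM on straw at 15 °C, while its spruce libraries had 8.26 and 8.65 CPM at 25 °C and 4.79 and 6.27 CPM at 15 °C. Its log2 fold change on straw was -1.34 ± 0.22 (edgeR adjusted p = 0.0857). In model 13717 the temperatures did not overlap on either substrate, lower at 25 °C on straw and higher at 25 °C on spruce. Over 15 alternatives the adjusted p lay between 2.45e-07 (DESeq2) and 0.386 for model 9778, below 0.05 in 7 of them, and between 0.000319 (DESeq2) and 0.673 for model 13717, below 0.05 in 4; leaving out either spruce library at 25 °C brought both below it.

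On spruce, where the rule makes the straw-high genes lower than on straw, more of them had a higher level at 25 °C than at 15 °C. The rule did not use this contrast, but it bounds it through the highest spruce library. A gene that rose far at either temperature on spruce could not be a member, a limit that all tested genes do not share. The fitted change was positive in 92 of 113 members (81.4%) and in 52.9% of all tested genes. Both 25 °C libraries lay above both 15 °C libraries in 50 members (44.2%, background 20.3%) and below them in 11 (9.73%, background 16.8%). The median log2 fold change was 0.48 over the members, with quartiles of 0.10 and 0.97, beside 0.03 over all tested genes, with quartiles of -0.20 and 0.28. At least 2-fold higher at 25 °C were 27 members (23.9%, background 5.09%), and 1 was at least 2-fold lower (background 1.85%). At an unadjusted p below 0.05 there were 38 higher (33.6%, background 7.78%) and 5 lower (4.42%, background 4.68%). The edgeR adjusted p was below 0.05 for 3 members, all higher, or 2.65%, against 0.336% of all genes called higher.

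The 3 called members had closely agreeing libraries. Model jgi|Trapub1|9492|scaffold_361.7 had 35.6 and 39.3 CPM on spruce at 25 °C, against 13.1 and 15.2 CPM on spruce at 15 °C (log2 fold change 1.40 ± 0.21, SE; edgeR adjusted p = 0.0327). On straw it had 136 and 132 CPM at 25 °C and 197 and 167 CPM at 15 °C, so its libraries separated by temperature on both substrates, in opposite directions. Model jgi|Trapub1|11257|scaffold_527.9 had 114 and 122 CPM on spruce at 25 °C, against 51.5 and 49.1 CPM at 15 °C (1.23 ± 0.22, edgeR adjusted p = 0.0475). Its straw libraries overlapped, with 327 and 263 CPM at 25 °C and 380 and 326 CPM at 15 °C. The last of the 3, jgi|Trapub1|4797|scaffold_1555.89, is named here because only 3 were called, after its values were seen. It had 410 and 398 CPM on spruce at 25 °C, against 186 and 159 CPM at 15 °C (1.23 ± 0.22, edgeR adjusted p = 0.0482). Its straw libraries had 941 and 954 CPM at 25 °C and 993 and 832 CPM at 15 °C and overlapped, and it is the member nearest to the limit of 2.

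The calls on spruce depended on single libraries more than the median did. edgeR called few of all genes when 1 of the 4 straw libraries or 2 spruce libraries at 15 °C was left out. The lack of called members in those fits says little about the members. When only the 4 spruce libraries were fitted, edgeR called 0 members and 0 of all 11327 tested genes. At an unadjusted p below 0.05 edgeR had 35 members in that fit (31% against 10.1% of all genes). With the first spruce library at 25 °C left out it called 9, all higher (7.96%, against 2.01% of all genes). With the second left out it called 4 higher (3.54% against 0.824%) and 1 lower (0.885% against 0.28%). DESeq2 on all 8 libraries called 18, all higher (15.9%, against 2.54% of all genes). The median over the members stayed between 0.34 and 0.72 with each library left out in turn, highest without the second spruce library at 15 °C; scaling by library totals alone moved the median of all genes to 0.18 and that of the members to 0.64, 0.47 apart as before (0.46).

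**Figure D3:**
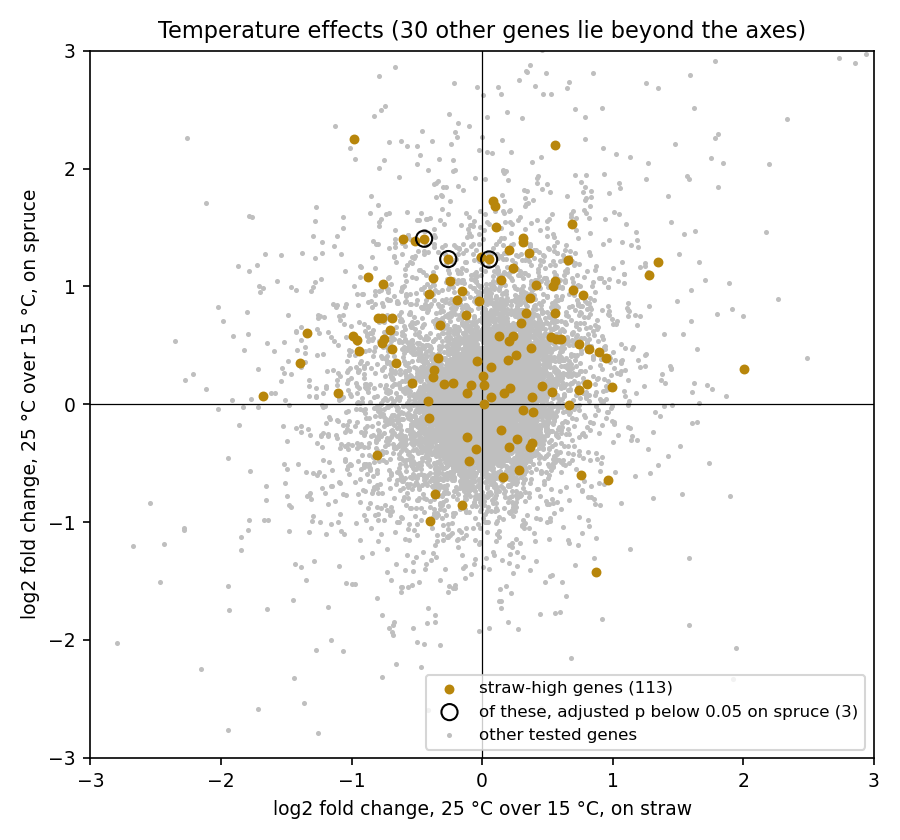
Log2 fold change of 25 °C over 15 °C on spruce against that on straw for the 113 straw-high genes and the other tested genes, 30 of which lie beyond the axes; circles mark the 3 members called on spruce. The members spread to both sides of 0 on straw, while 92 of 113 lie above 0 on spruce.

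The interaction term asks whether temperature acted differently on straw than on spruce, which equals the difference between the straw over spruce ratio at 25 °C and at 15 °C. It shares its libraries with the temperature contrasts above. It also shares them with the rule, which compared straw with spruce libraries of both temperatures. Shares of members set beside those of all genes are therefore a description for this term. It was negative, with the smaller substrate ratio at 25 °C, in 75 of 113 members (66.4%) and in 51.6% of all tested genes, with a median of -0.41 over the members and -0.01 over all genes. At an unadjusted p below 0.05 there were 32 lower (28.3%, background 5.43%) and 4 higher (3.54%, background 2.44%). The edgeR adjusted p was below 0.05 for model 9492 alone (0.885% of the members, background 0.198% for lower values), with a log2 value of -1.85 ± 0.29 (SE; edgeR adjusted p = 0.0495). Straw stood 3.58-fold above spruce at 25 °C and 12.9-fold at 15 °C in this gene. The call was lost with RLE scaling (edgeR adjusted p = 0.0559), with library totals alone (edgeR adjusted p = 0.0626) and without any single library other than the first spruce library at 25 °C, while DESeq2 called 15 members, 13 lower (11.5%, against 1.38% of all genes) and 2 higher (1.77% against 0.576%).

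Replicates of a group differed in the straw-high genes in one direction more often than in all genes. On straw at 25 °C, the second library was above the first in 26 of 113 members (23%, against 43.7% of all tested genes). On straw at 15 °C it was above in 97 (85.8%, against 56.9%), on spruce at 25 °C in 63 (55.8%, against 50.8%) and on spruce at 15 °C in 90 (79.6%, against 47.6%). The median log2 difference of the second over the first library across the members was -0.28 on straw at 25 °C and 0.32 on straw at 15 °C, each larger in size than the median of 0.10 between the temperatures on straw. On spruce it was 0.07 at 25 °C and 0.35 at 15 °C, below the median of 0.48 between the temperatures. Summed over the members, CPM was 26856 and 21834 on straw at 25 °C and 21674 and 27228 on straw at 15 °C, which overlapped, and 4423 and 4323 on spruce at 25 °C and 2806 and 3196 on spruce at 15 °C, which did not.

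**Figure D4:**
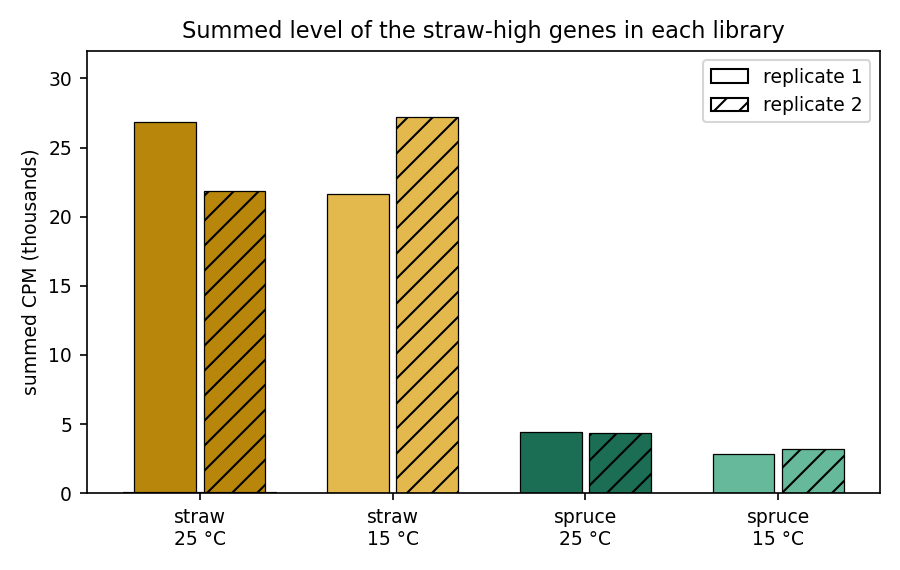
Summed CPM of the 113 straw-high genes in each of the 8 libraries (plain bars, replicate 1; hatched bars, replicate 2). The straw libraries of the 2 temperatures overlap between 21674 and 27228, and both spruce libraries at 25 °C are above both at 15 °C.

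Straw-high genes often stood beside each other in the model numbering of a scaffold, a property the rule did not use. The 113 members lay on 79 of the 1308 scaffolds that hold a gene model, and 31 (27.4%) had a member as the model just before or after. They formed 12 runs of consecutive members, 6 of 2 models, 5 of 3 and 1 of 4. Of the 219 positions next to a member, 38 (17.4%) held a member, while 0.782% of all gene models are members. Counting only models whose lowest straw library reached 10 CPM, members held 26.2% of 145 such positions and 1.43% of 7878 models. The files do not state that the model numbers follow the order on the chromosome, and without a strand setting reads of overlapping neighbours could not be told apart.

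The neighbours that were not members also included more genes higher on straw. Of 178 such neighbours 166 were tested. At 25 °C 13 of them (7.83%) were called higher on straw than on spruce by edgeR (adjusted p below 0.05), against 2.49% of all tested genes that are not members, and 9 (5.42%) were called lower, against 4.26%. At 15 °C 25 (15.1%) were called higher, against 6.73%, and 10 (6.02%) lower, against 5.74%. At both temperatures 10 (6.02%) were called higher, against 1.56%. Their median log2 fold change of straw over spruce was 0.16 at 25 °C and 0.15 at 15 °C, beside -0.03 and -0.01 over the tested genes that are not members.

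The longest run was models 8 to 11 of scaffold 1303, a scaffold with 20 models of which 5 are members. Model 10 of this scaffold (jgi|Trapub1|2502|scaffold_1303.10) had 576 and 364 CPM on straw at 25 °C and 312 and 326 CPM on straw at 15 °C, against 6.38 and 30.0 CPM on spruce at 25 °C and 3.11 and 4.68 CPM on spruce at 15 °C. Model 11 had 427 and 309 CPM on straw at 25 °C and 258 and 356 CPM on straw at 15 °C, against 91.7 and 92.0 CPM on spruce at 25 °C and 67.8 and 69.8 CPM on spruce at 15 °C. Both models were higher at 25 °C on spruce without overlap, and model 10 on straw as well. Model 8 had 126 and 81.9 CPM on straw at 25 °C and 63.3 and 81.4 CPM on straw at 15 °C, narrowly without overlap. Model 9 had 163 and 97.7 CPM on straw at 25 °C and 84.6 and 125 CPM on straw at 15 °C. On spruce model 8 lay between 10.3 and 30.1 CPM and model 9 between 4.91 and 22.4 CPM. In all 4 the first library was the higher one on straw at 25 °C and the lower one on straw at 15 °C.

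The run with the most reads was models 3 to 5 of scaffold 462, which holds the models 10552 and 10553 described above. Its remaining member, model 3, had 162 and 120 CPM on straw at 25 °C and 83.2 and 110 CPM on straw at 15 °C, against 21.2 and 23.8 CPM on spruce at 25 °C and 9.70 and 12.7 CPM on spruce at 15 °C. Summed over the run, CPM was 4436 and 3043 on straw at 25 °C, 2788 and 3881 on straw at 15 °C, 374 and 278 on spruce at 25 °C and 103 and 140 on spruce at 15 °C. All 3 had a positive log2 fold change on spruce, from 1.00 to 1.68, none of them called.

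Neighbours in a run mostly shared the sign of their temperature change. The fitted sign was the same for all members of the run on straw in 11 of 12 runs, the exception being scaffold 1720, and on spruce in 12 of 12. Over all members the sign was positive in 56.6% on straw and in 81.4% on spruce. Sign agreement of adjacent models over all genes was not counted, so the agreement within runs is a description. The following runs were picked after their values were seen. The runs of scaffolds 398 and 895 were lower at 25 °C on straw, with summed CPM of 429 and 363 at 25 °C against 644 and 797 at 15 °C, and of 412 and 340 at 25 °C against 539 and 927 at 15 °C. On spruce both were higher at 25 °C, at 93.8 and 86.8 against 53.1 and 61.5 CPM at 15 °C for scaffold 398, and at 67.5 and 58.4 against 37.6 and 48.3 CPM at 15 °C for scaffold 895. The pair on scaffold 1660 was higher at 25 °C on straw, at 1011 and 668 CPM against 375 and 503 CPM at 15 °C, and overlapped on spruce. No gene of these runs passed the edgeR threshold in either temperature contrast.

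**Figure D5:**
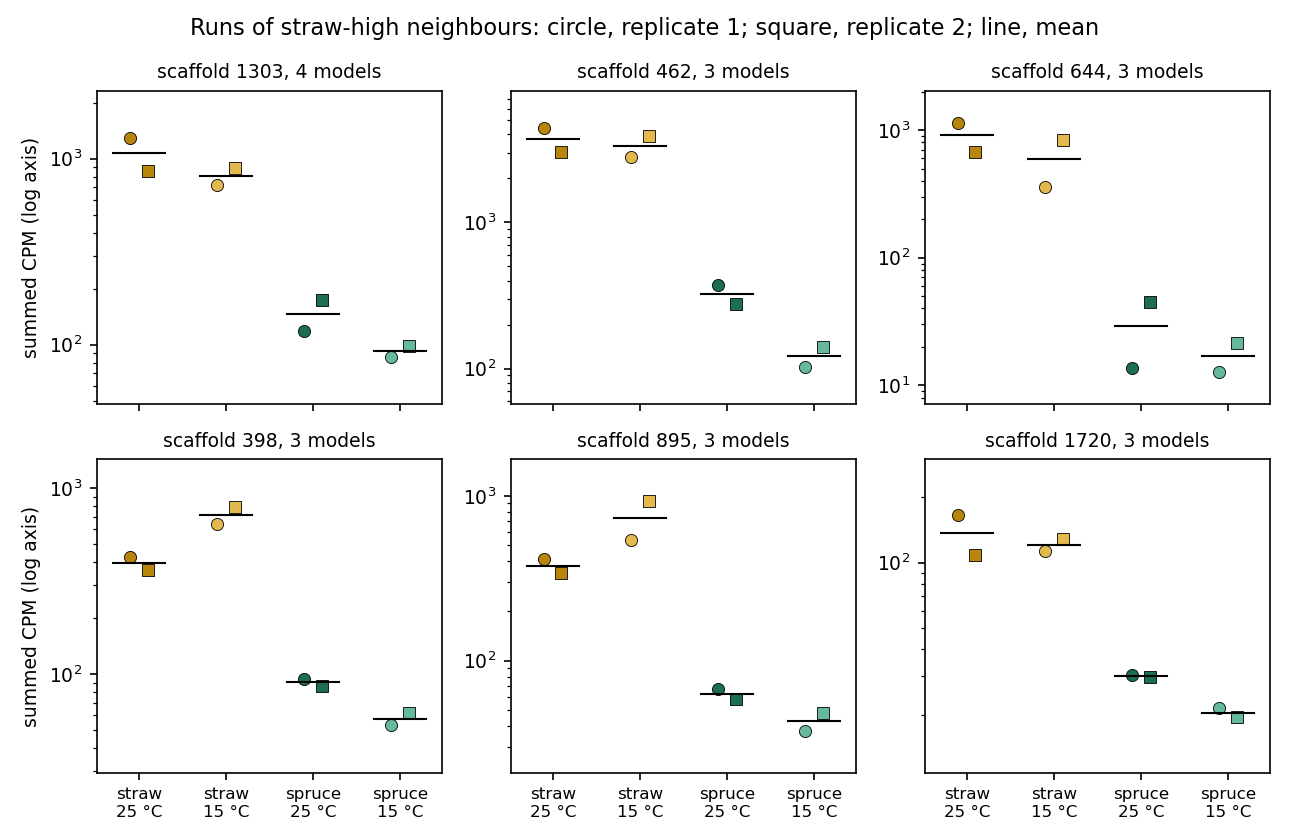
Summed CPM, on log axes, of the 6 runs with 3 or more straw-high neighbours in each library, by group from straw at 25 °C to spruce at 15 °C. The runs of scaffolds 398 and 895 separate by temperature on straw and the runs of scaffolds 1303, 462, 644 and 1720 overlap there.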

How the data were processed

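Messenger RNA of mycelium was sequenced in 16 libraries, of which the 8 of T. pubescens enter the tests. The authors deposited raw counts as whole numbers, with 1 file per library. Trimmomatic 0.36 and STAR 2.7.10a were used, per the submitters' processing notes. Gene identifiers in the files begin with jgi|Trapub1, which names the gene model set. Not given in the sources used here were the build and annotation version behind it and any strand setting. Genes with few counts were removed with filterByExpr (11622 of 14451 kept), libraries were scaled by TMM on the kept genes with totals over all models, and 1 mean per group was fitted over all 8 libraries with edgeR 4.0.16 (R 4.3.3), without a replicate block and with 4 residual degrees of freedom. Adjustment of p-values (Benjamini-Hochberg) ran over all tested genes. Each SE was taken as the fitted log2 difference over the root of F. CPM used the scaled totals. Members, gene lists and tests were chosen with earlier results of these data known. The contrast of straw with spruce chose the members, so no test of it is reported for them. Named were the 2 members with the highest ratio, the 2 with the highest straw CPM, up to 2 called members per direction and contrast (else the 2 with the lowest p) and the 2 longest runs. Product lists were not used, for want of gene names. Counts of replicates differed by more than sampling noise, with a chi-square per degree of freedom of 28.5 to 84.7. Alternatives were DESeq2 1.42.0, RLE scaling, library totals alone, no filter, a replicate block, each library left out, a fit of 4 libraries and other limits of the rule.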

Additional observations from a re-analysis of the deposited data

Results flagged for a closer look

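The fitted temperature effect of jgi|Trapub1|9492|scaffold_361.7 had opposite signs on the substrates, a description, since the interaction term shares libraries with the rule. The change at 25 °C over 15 °C was -0.44 on straw and 1.40 on spruce on the log2 scale, and the interaction term, straw minus spruce, was -1.85 ± 0.29 (SE; edgeR adjusted p = 0.0495). Over 14 alternatives it lay between -1.98 and -1.72, and the adjusted p between 4.69e-05 (DESeq2) and 0.313, below 0.05 in 5 of them.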

How the results depend on the processing

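For the 5 genes named for a temperature contrast or the interaction, models 9778, 13717, 9492, 11257 and 4797, the fold change of the contrast that named each kept its direction in the alternatives run, while the calls and their counts did not. Against 0, 3 and 1 members called on straw, on spruce and for the interaction, DESeq2 called 7, 18 and 15 (6.19%, 15.9% and 13.3%, against 1.28%, 3.93% and 1.95% of all genes). RLE scaling and library totals alone called 0 for the interaction, against 0.0086% and 0.155% of all genes. At an unadjusted edgeR p below 0.05 they had 35 and 37 members. That is 31% and 32.7% of the members, against 7.97% and 8.48% of all genes. Without a filter on low counts 1 was called on straw (0.885%, against 0.143% of all genes). Fits of the 4 libraries of a contrast called 1 on straw (0.885% against 0.174%) and 0 on spruce, where 0 of all 11327 tested genes were called. In the spruce fit 35 members had an unadjusted edgeR p below 0.05 (31% against 10.1%). When libraries were left out one by one, the counts ranged from 0 to 5, 0 to 9 and 0 to 7, and without the first spruce library at 25 °C they were 5, 9 and 7 (0.858%, 2.83% and 1.58% of all genes). The median over the members lay between -0.07 and 0.18 on straw, between 0.34 and 0.72 on spruce and between -0.55 and -0.24 for the interaction. The cause of these shifts was not tested. The labels do not say what replicate numbers share. Deviations of same-numbered libraries from their group means correlated between -0.19 and 0.44 across genes, negative in each pair with straw at 25 °C, so the numbers were not taken as pairs. The replicate block called 1, 6 and 2 members (0.189%, 1.4% and 0.559% of all genes); with the numbers of the straw 25 °C libraries crossed, chosen after seeing the data, it called 3, 13 and 8 (0.482%, 3.34% and 1.16%). Library totals alone left 6 in place of 11 members with both spruce libraries at 25 °C below those at 15 °C. That scaling also moved the median spruce change of all tested genes from 0.03 to 0.18. The matching share over all genes was not counted, so it is not known whether the drop is particular to the members. The rule gave 220 genes with a ratio of 1.5, 20 with a ratio of 4, 199 at 25 °C alone, 480 at 15 °C alone and 117 to 185 with each library left out. With 1 library left in a group, it is assumed to vary like the other groups.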

Other observations

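The member with the most negative interaction value was model 31 of scaffold 1045 (jgi|Trapub1|521|scaffold_1045.31), picked after its values were seen. It had 357 and 302 CPM on straw at 25 °C and 492 and 811 CPM on straw at 15 °C, against 42.8 and 51.6 CPM on spruce at 25 °C and 3.83 and 15.7 CPM on spruce at 15 °C. Straw stood 6.98-fold above spruce at 25 °C and 66.6-fold at 15 °C. The interaction, straw minus spruce, was -3.23 ± 0.72 (SE; edgeR adjusted p = 0.139) and was not called. Its neighbour, model 32, was also a member, and their summed CPM was 434 and 355 on straw at 25 °C, 562 and 893 on straw at 15 °C, 52.1 and 66.6 on spruce at 25 °C and 5.75 and 25.3 on spruce at 15 °C.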
